A study of Mus musculus with 16 samples.

Results

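The 5 subunits of the phagocyte NADPH oxidase described here were measured through single-cell RNA sequencing of mouse bone marrow (BM) and mammary tumors. The members were taken by gene symbol (Cybb, Cyba, Ncf1, Ncf4 and Rac2), 5 of the 32286 genes listed in each of 16 libraries. The phagocyte oxidase is an enzyme of granulocytes and macrophages that moves electrons from NADPH across a membrane to oxygen and makes superoxide for killing microbes. Cybb (gp91phox) is its catalytic subunit, and Cyba (p22phox) is the membrane partner that stabilizes it. Ncf1 (p47phox) organizes the cytosolic complex on activation, Ncf4 (p40phox) is another cytosolic subunit, and Rac2 is the blood cell GTPase that joins the active complex. Myeloid-derived cells with high oxidase activity are known for suppressing T cells in tumor-bearing hosts.

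The BM libraries came from female wild-type BALB/c mice in 3 groups of 2 libraries per sort. Control mice bore no tumor and were untreated, so they differed from vehicle mice in dosing as well as in the transplanted tumor. Vehicle and IACS-70654 mice carried 2208L, a Trp53-null mammary tumor transplanted into young adult wild-type females, and IACS-70654 is an oral inhibitor of the CBP/P300 bromodomain. According to the series design, dosing followed a 3-on/2-off cycle and lasted 7 days, although the text of the study gives another length for the BM experiment. Cells of 3 mice were pooled per sample. No source used here says whether the 2 replicates are separate pools or captures, so p-values measure only the spread between these libraries. BM was sorted either as CD45+ Ter119- cells or as lineage- c-Kit+ CD45+ progenitors. Tumors were sorted for live cells and gave 1 library each for vehicle, IACS-70654, anti-PD1 and a combination. The sample label does not name the agents of the combination, which is read here as IACS-70654 with anti-PD1. The combination treatment described in the study also included docetaxel.

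After filtering, 31191 CD45+ BM cells, 28155 c-Kit+ BM cells and 13830 tumor cells were kept. The median number of unique molecular identifiers (UMIs, counted RNA molecules) per cell was 4113 to 6597 in CD45+ libraries, 6712 to 9512 in c-Kit+ libraries and 4724 to 6332 in tumor libraries. Cell classes were built by clustering without the members and named from marker genes. A class such as "mature neutrophil-like" therefore rests on markers. Neutrophil clusters with both Retnlg and Mmp8 among their 10 leading genes were called Retnlg/Mmp8-led, and in the cluster that held most IACS-70654 cells of this class Stfa3 and Cstdc6 ranked ahead of both. Levels are UMIs of a gene per 1000000 UMIs of the class in a library (CPM). They may be compared between classes or groups for 1 gene, but not between genes.

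Cybb lies on the minus strand of chromosome X (chrX:9435252-9487771, GRCm38). Ncf1 (chr5:134220053-134229625) and Cyba (chr8:122424776-122432930) lie on minus strands as well. Ncf4 (chr15:78244801-78262580, plus strand) and Rac2 (chr15:78559167-78572783, minus strand) share chromosome 15. The RefSeq start of Cybb, which lies inside the span given above and not at its end, is shown because its level moved most with stage and treatment, and because PU.1, the Ets factor encoded by Spi1, is known to act on this promoter. The RefSeq stretch below covers 50 bases before and 20 bases after the RefSeq start (GRCm38.p6, chrX:9469305-9469374, minus strand), with capitals marking the only match to GAGGAA on either strand, an Ets-type core read here as its reverse complement.
Cybb: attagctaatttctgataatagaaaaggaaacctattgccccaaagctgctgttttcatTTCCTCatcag
The match began at base 10 of the transcript. The same 6 letters occurred on either strand in 28.3% of the 32851 RefSeq promoters of 300 bases (9289 of them), and in neither the Ncf1 nor the Cyba window. Ncf4 and Rac2 were not searched, since only 3 of the 5 members were matched in the promoter table. The match is a description of these letters and not evidence of binding.

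Cybb was the member whose level changed most along neutrophil maturation in control BM. Its level was 519.8 and 456.8 CPM in the 2 control libraries in proNeu-like cells, the azurophil granule precursors. It stood at 1652.5 and 1628.3 CPM in cycling preNeu-like cells and at 2423.2 and 2342.4 CPM in immature neutrophil-like cells, the highest of the 11 CD45+ classes. Retnlg/Mmp8-led neutrophils held 1058.6 and 981.5 CPM, mature neutrophil-like cells 361.6 and 408.0 CPM, and Il1b-high neutrophil-like cells 94.7 and 104.6 CPM. Cybb was thus low at the start, highest in immature cells and low again in mature cells, and neighbouring neutrophil stages did not overlap in these libraries. The ratio of immature to mature cells was 6.70 and 5.74 in the controls, and the ratio of immature to Il1b-high cells was 25.6 and 22.4, on 14 and 15 Cybb UMIs in the latter.

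**Figure D1:**
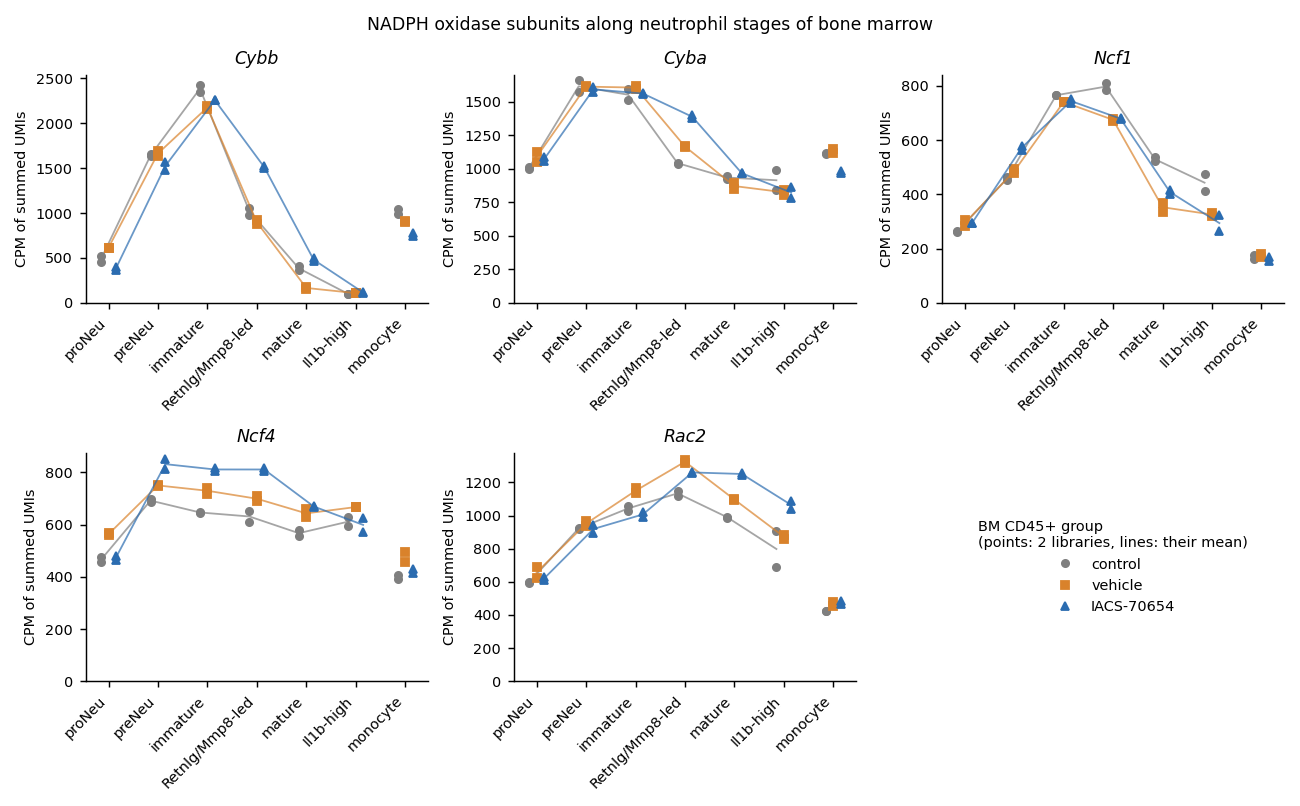
Level of each subunit (CPM without TMM, 1 point per CD45+ BM library, lines through the group means) in the neutrophil stages and in monocyte-like cells of the 3 groups. In control libraries Cybb ran from 94.7 CPM in Il1b-high cells to 2423.2 CPM in immature cells, whereas Ncf4 and Rac2 changed far less between immature and mature cells.

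The other subunits kept much more of their level in mature cells. Cyba, the membrane partner of Cybb, was highest in preNeu-like (1570 and 1659 CPM) and immature cells (1509 and 1595 CPM), whose ranges overlapped, and its immature to mature ratio was only 1.63 to 1.69. Ncf1 was highest later, since it measured 261 and 265 CPM in proNeu-like cells, 463 and 453 CPM in preNeu-like cells and 767 and 765 CPM in immature cells. Its highest class was the Retnlg/Mmp8-led one at 786 and 809 CPM, and its immature to mature ratio was 1.42 to 1.47. Ncf4 ranged from 456 CPM in proNeu-like cells to 696 CPM in preNeu-like cells, with an immature to mature ratio of 1.12 to 1.16. Rac2 differed little between immature and mature cells, with 1060 and 1027 CPM in immature cells, 987 and 994 CPM in mature cells and a ratio of 1.03 to 1.07, but it was 596 and 602 CPM in proNeu-like cells, where the immature to proNeu-like ratio was 1.71 to 1.78. These stage levels are a description and carry no test, because the classes were defined from the same cells.

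Outside neutrophils, the membrane pair stood high in monocyte-like cells (Cybb 991 and 1039 CPM, Cyba 1107 and 1117 CPM), where Cybb overlapped the Retnlg/Mmp8-led class. Monocyte-like cells had low levels of the cytosolic subunits for their lineage, with Ncf1 at 163 to 177 CPM and Ncf4 at 393 to 408 CPM. Rac2 was lowest of all 11 classes in monocyte-like cells, at 423 and 424 CPM. Plasmacytoid dendritic cell-like (pDC-like) cells held 678 to 763 CPM of Cybb, and B cell-like cells 212 to 265 CPM. T/NK-like cells, which are not phagocytes, held 176 and 91.2 CPM of Cybb. With each cell thinned to 1000 UMIs, a Cybb UMI was found in 3.7% to 18.2% of T/NK-like cells and in 7.2% to 12.1% of Il1b-high cells over the 6 libraries, at median depths of 4394 and 1645 UMIs per cell. The T/NK-like share was 3.7% to 6.7% without the vehicle libraries, whose T/NK-like cells were few and rich in neutrophil markers. The Il1b-high share lay above that narrower range and within the wider one, so how much of its low Cybb level is background cannot be told from these shares.

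The first comparison asked whether vehicle-treated tumor-bearing mice differed from untreated control mice. In CD45+ BM, 3 of 55 member and class pairs passed the test (edgeR's quasi-likelihood test on UMIs summed per library and class, Benjamini-Hochberg adjusted p below 0.01 and a log2 change above 0.5 in size), against 3.4% of all gene and class pairs. Over the 55 pairs, the median log2 change was 0.15, beside medians of -0.01 to 0.04 over all genes of a class. The calls lay in mature neutrophil-like and T/NK-like cells. Their number was 5 without vehicle replicate 2, IACS-70654 replicate 1 or IACS-70654 replicate 2, and 3 to 5 over all left-out libraries.

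In mature neutrophil-like cells Cybb fell. Levels scaled with trimmed means of M values (TMM) are given per 1000000 UMIs of the genes that passed the low-count filter, so they run above plain CPM in small classes. On this scale its level was 375.0 and 423.9 CPM in control, 165.6 and 178.4 CPM in vehicle, and 471.2 and 437.4 CPM in IACS-70654 libraries. No group overlapped another: vehicle libraries were lowest and IACS-70654 libraries highest. The log2 change of vehicle against control was -1.21 ± 0.06 (SE, n = 2 against 2, edgeR adjusted p = 1.04e-24), where 11.4% of 9364 genes in the class were called. Ncf1 fell with it, from 541.1 and 558.3 CPM to 348.3 and 380.0 CPM, a log2 change of -0.59 ± 0.05 (edgeR adjusted p = 3.56e-16).

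Both changes depended on how the mature class was drawn. Different clusters held most of it in each group: cluster 7 held 84.3% of the control cells, cluster 1 held 90.4% of the vehicle cells and cluster 3 held 93.5% of the IACS-70654 cells. The summed level of 6 immature neutrophil markers in the class moved the same way as Cybb, with 10182 to 11331 CPM in control, 7018 to 7684 CPM in vehicle and 10741 to 11159 CPM in IACS-70654 libraries, and its part in the result was not tested. When neutrophils were clustered again on their own, the log2 changes of vehicle against control were -0.39 for Cybb and -0.29 for Ncf1, and neither was called. When the 3 late neutrophil classes were pooled, Cybb turned to 0.071 (edgeR adjusted p = 0.0486) and Ncf1 to -0.08.

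IACS-70654 was then compared with vehicle, both in tumor-bearing mice. In CD45+ BM, 7 of 55 member and class pairs passed, 5 higher and 2 lower, against 11% of all gene and class pairs. The median log2 change over the member pairs was -0.12. Of the 7, 4 were Cybb in neutrophil classes or T/NK-like cells, and the other 3 lay in B cell-like cells.

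In mature neutrophil-like cells Cybb rose with IACS-70654 by a log2 change of 1.39 ± 0.05 (n = 2 against 2, edgeR adjusted p = 2.36e-30), where 20.9% of the genes of the class were called. This call held in all 15 alternatives that could be fitted, between 0.53 and 1.54, with the smallest value from pooling the 3 late neutrophil classes. Clustering of library-centred values was not among them, because it left 14 and 11 control cells in the class. The second clustering of neutrophils gave 1.22 on another set of cells. There the Il1b-high class took 1014 and 1289 IACS-70654 cells, in place of 347 and 449. Of the 3 clusters called mature, the one with most IACS-70654 cells held 201 and 266 of them, where the mature class had held 1104 and 1359. That cluster was led by Ifit1 and Rsad2. Another mature cluster, led by Wfdc17 and Ifitm1, had the most vehicle cells, at 1184 and 1520. After thinning to 1000 UMIs, 26.9% to 28.8% of mature cells had a Cybb UMI in IACS-70654, 10.9% to 11.6% in vehicle and 24.5% to 26.6% in control libraries. Without thinning these shares were 56.9% to 59.2%, 29.0% to 31.0% and 46.6% to 47.4%. At median depths of 2763 UMIs in mature and 4394 UMIs in T/NK-like cells, the vehicle share lay below the 14.3% and 18.2% of T/NK-like cells of the vehicle libraries. Those held only 21 and 22 cells with many neutrophil marker UMIs, so they set no firm background level. Ncf1 in the same class was 392.9 and 380.7 CPM with IACS-70654, which did not pass the fold limit against vehicle.

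In the Retnlg/Mmp8-led neutrophils, Cybb was 1017.2 and 943.7 CPM in control, 981.1 and 1015.6 CPM in vehicle, and 1404.0 and 1440.3 CPM in IACS-70654 libraries. IACS-70654 stood above both other groups. Control and vehicle overlapped with TMM (log2 change 0.025), but with library totals vehicle lay below control (-0.19), at 876 and 920 CPM against 1059 and 981 CPM. The log2 change against vehicle was 0.51 ± 0.03 (edgeR adjusted p = 2.52e-30), where 22% of genes were called, but it lay at the fold limit. Library totals gave 0.75. It was not called without vehicle replicate 1 (0.48), with either use of DESeq2 (0.50), with the second clustering (0.24) or with clustering of library-centred values (-0.11). The immature marker sum was 55816 to 57467 CPM in IACS-70654 and 34404 to 34904 CPM in vehicle libraries, and its part was not tested. Cluster membership differed too, with 93.9% of the IACS-70654 cells in cluster 0, 78.0% of the control cells in cluster 2, and 49.7% and 45.3% of the vehicle cells in clusters 6 and 2.

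In CD45+ proNeu-like cells, the earliest neutrophil precursors of this sort, Cybb went the other way. It was 522.4 and 462.2 CPM in control, 647.5 and 623.9 CPM in vehicle, and 394.7 and 353.9 CPM in IACS-70654 libraries, with no overlap between any groups. The fall with IACS-70654 was a log2 change of -0.77 ± 0.07 (edgeR adjusted p = 1.18e-09), where 5.94% of genes were called, and all 15 alternatives called it, between -1.38 and -0.63. The immature marker sum in the class was 24019 to 24716 CPM in vehicle and 10868 to 11751 CPM in IACS-70654 libraries, and its part was not tested.

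The difference between stages was tested directly, although both classes held other clusters in IACS-70654 than in vehicle libraries (cluster 3 against 1 for mature cells, cluster 11 against 4 and 9 for immature cells). The log2 effect of IACS-70654 on Cybb was 1.57 ± 0.06 larger in mature than in immature neutrophil-like cells (edgeR's quasi-likelihood test of the class by group term, library as block, Benjamini-Hochberg adjusted p = 9.85e-54). It was the only one of the 5 members called, where 10.7% of 10490 genes were called, and it ranged from 1.33 to 1.73 over 8 alternatives. The corresponding differences were 0.49 ± 0.04 for Rac2, 0.31 ± 0.05 for Ncf1, 0.30 ± 0.04 for Cyba and 0.01 ± 0.05 for Ncf4. The Rac2 value passed the fold limit, at 0.50 to 0.59, when control 1, control 2, vehicle 1, vehicle 2 or IACS-70654 2 was left out. As plain CPM ratios, the immature to mature step of Cybb was 13.7 and 12.4 with vehicle, 4.52 and 4.88 with IACS-70654, and 6.70 and 5.74 in control libraries. For Rac2 this ratio was 0.80 to 0.81 in IACS-70654 libraries, so that Rac2 stood higher in mature than in immature cells there.

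**Figure D2:**
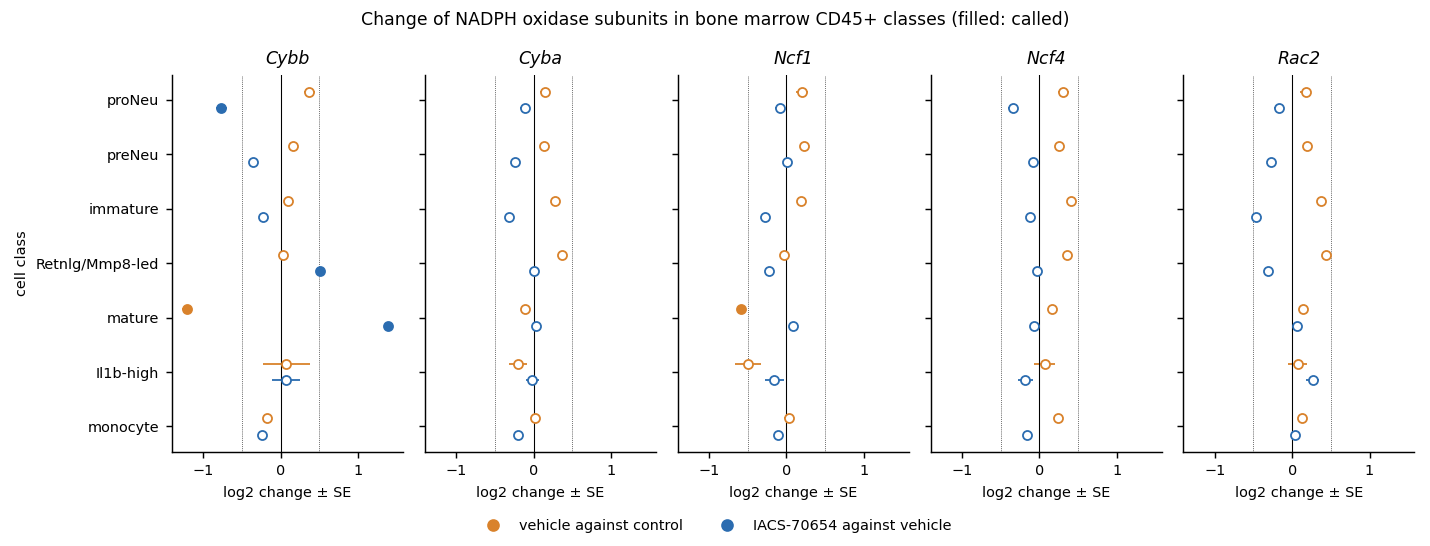
log2 change of each subunit by CD45+ BM class with its standard error, for vehicle against control and for IACS-70654 against vehicle (2 libraries per group, TMM scaling). Cybb in mature neutrophil-like cells moved by -1.21 and then by 1.39, and values in immature cells lay within 0.5 of 0 and for Cybb, Ncf1 and Ncf4 changed sign in at least 1 contrast when library totals replaced TMM.

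In immature neutrophil-like cells no member passed the fold limit, where 5.52% of genes were called for vehicle against control and 20.8% for IACS-70654 against vehicle. Different clusters held this class too: cluster 11 held 83.5% of the IACS-70654 cells but 3.15% of vehicle and 0.948% of control cells, whereas clusters 4 and 9 held 57.0% and 35.6% of the vehicle cells and 61.7% and 35.8% of the control cells. Cybb was 2329.2 and 2243.6 CPM in control, 2480.0 and 2426.7 CPM in vehicle, and 2100.5 and 2094.5 CPM in IACS-70654 libraries. The log2 changes of the 5 members were 0.10 to 0.41 for vehicle against control and -0.47 to -0.12 for IACS-70654 against vehicle. Library totals in place of TMM moved the median of all genes in this class by -0.23 and 0.28, and the direction of some members turned: Cybb to -0.13 and Ncf1 to -0.048 in the first contrast, and Cybb to 0.054, Ncf1 to 0.0063 and Ncf4 to 0.16 in the second. The same choice moved the medians by -0.21 and 0.24 in Retnlg/Mmp8-led cells and by -0.14 and 0.23 in preNeu-like cells.

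**Figure D3:**
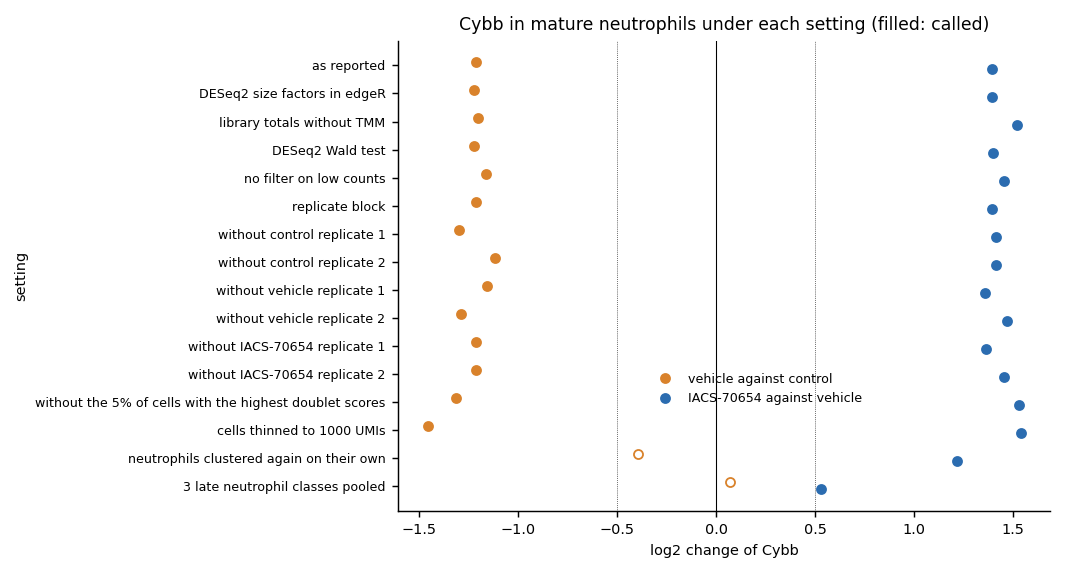
log2 change of Cybb in mature neutrophil-like cells under each processing alternative that could be fitted, for both contrasts. The IACS-70654 value stayed between 0.53 and 1.54, whereas the vehicle value ranged up to 0.071 when the 3 late neutrophil classes were pooled.

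In monocyte-like cells the changes of Cybb, -0.17 and -0.24 in the 2 contrasts, did not pass the fold limit. Cybb was 993.1 and 1047.4 CPM in control, 904.8 and 908.1 CPM in vehicle, and 778.1 and 754.4 CPM in IACS-70654 libraries, and the groups did not overlap. In preNeu-like cells it was 1612.8 and 1633.4, 1781.5 and 1847.2, and 1457.5 and 1384.6 CPM in the same order. IACS-70654 libraries were lowest there. Vehicle stood above control only with TMM (log2 change 0.16), since with library totals the change was 0.019 and the levels overlapped, at 1652 and 1628 CPM in control and 1634 and 1690 CPM in vehicle.

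In pDC-like cells no member passed the edgeR test, where 9 and 377 of 9167 genes were called in the 2 contrasts. Unadjusted edgeR p was below 0.05 for 2 of 5 and 1 of 5 members. The log2 changes were -0.29 to 0.44 for vehicle against control and -0.30 to 0.19 for IACS-70654 against vehicle. None passed in basophil/mast-like cells, a class of 20 to 48 cells per library, where 8 and 65 of 4734 genes were called. Unadjusted edgeR p was below 0.05 for 0 of 5 and 1 of 5 members there. Ncf1 there was 237.3 and 184.3 CPM in control, 174.4 and 227.1 CPM in vehicle, and 85.9 and 105.7 CPM in IACS-70654 libraries (log2 change against vehicle -1.06 ± 0.32, edgeR adjusted p = 0.0701), so the IACS-70654 libraries lay lowest without a call.

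Both membrane subunits and Ncf4 stood higher with IACS-70654 in B cell-like cells, a class whose clusters differed between the groups. Cyba was 354.3 and 397.2 CPM in control, 374.5 and 401.9 CPM in vehicle, and 580.7 and 642.0 CPM in IACS-70654 libraries (log2 change against vehicle 0.67 ± 0.12, edgeR adjusted p = 1.27e-04). Cybb was 289.2 and 243.5 CPM in vehicle and 490.8 and 389.2 CPM in IACS-70654 libraries (0.69 ± 0.15, edgeR adjusted p = 0.00145). Ncf4 was 157.9 and 160.8 CPM in vehicle and 296.0 and 237.1 CPM with IACS-70654 (0.70 ± 0.15, edgeR adjusted p = 0.00158). The background in this class was 10.1% of genes. These 3 calls were all lost after thinning, at 0.44 for Cyba, 0.42 for Cybb and 0.45 for Ncf4. Cybb was not called without vehicle replicate 2 (0.56, edgeR adjusted p = 0.0197), nor Ncf4 without IACS-70654 replicate 1 (0.59, edgeR adjusted p = 0.0147). The class held 47 and 101 cells in IACS-70654 libraries against 156 and 177 in vehicle. Cluster 19, with Cd74, H2-Aa, Ighd and Ms4a1 among its leading genes, held 73.0% of IACS-70654, 4.80% of vehicle and 20.7% of control cells. Cluster 13, with Ebf1, Vpreb3 and Igkc among its leading genes, held 8.78%, 67.6% and 57.5% in the same order. The part of this shift in the 3 calls was not tested.

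T/NK-like cells carried larger changes of Cybb than mature neutrophils did, in few cells. Cybb was 206.7 and 106.8 CPM in control, 621.9 and 608.9 CPM in vehicle, and 132.9 and 102.2 CPM in IACS-70654 libraries, with vehicle apart from both others. The log2 changes were 1.91 ± 0.24 for vehicle against control (edgeR adjusted p = 3.84e-04, background 1.07%) and -2.39 ± 0.32 for IACS-70654 against vehicle (edgeR adjusted p = 4.68e-04, background 0.645%). The vehicle class held 22 and 21 cells, against 123 and 83 in control and 30 and 32 in IACS-70654 libraries. The immature neutrophil marker sum in these cells was 15670 to 25505 CPM in vehicle, 4750 to 9815 CPM in control and 2302 to 3393 CPM in IACS-70654 libraries, and moved with Cybb. Its part in the result was not tested.

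Among c-Kit+ progenitors, Cybb was close to background outside a few classes. Over the 6 libraries it was 153 to 267 CPM in plasma cell-like cells, 37.8 to 67.1 CPM in F13a1/Elane-led progenitors, 38.3 to 56.7 CPM in monocyte progenitor-like cells and 10.2 to 24.0 CPM in proNeu-like cells. Hematopoietic stem cell-like (HSC-like) cells held 0 to 3.29 CPM and erythroid-like cells 1.51 to 2.70 CPM. A Cybb UMI was found in 1.7% to 3.2% of thinned proNeu-like cells and in 0 to 0.5% of thinned erythroid-like cells, at median depths of 10254 and 11455 UMIs. The other subunits had UMIs in the earlier classes too. In control libraries Rac2 was 196 to 208 CPM and Ncf4 62.9 to 64.8 CPM in multipotent progenitor-like (MPP-like) cells, beside 65.9 CPM and 9.87 to 10.2 CPM in erythroid-like cells. Cyba was 103 to 109 CPM in MPP-like cells, overlapping the 107 to 108 CPM of erythroid-like cells, and 273 to 275 CPM in proNeu-like cells. Ncf1 was 9.12 to 18.1 CPM in HSC-like, 20.8 to 27.1 CPM in MPP-like, 58.8 to 63.8 CPM in proNeu-like and 79.3 to 79.7 CPM in monocyte progenitor-like cells. It was not confined to myeloid classes. With TMM scaling, lymphoid-primed-like control cells held 86.5 and 85.9 CPM of Ncf1, beside 81.2 and 80.6 CPM in monocyte progenitor-like cells.

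**Figure D4:**
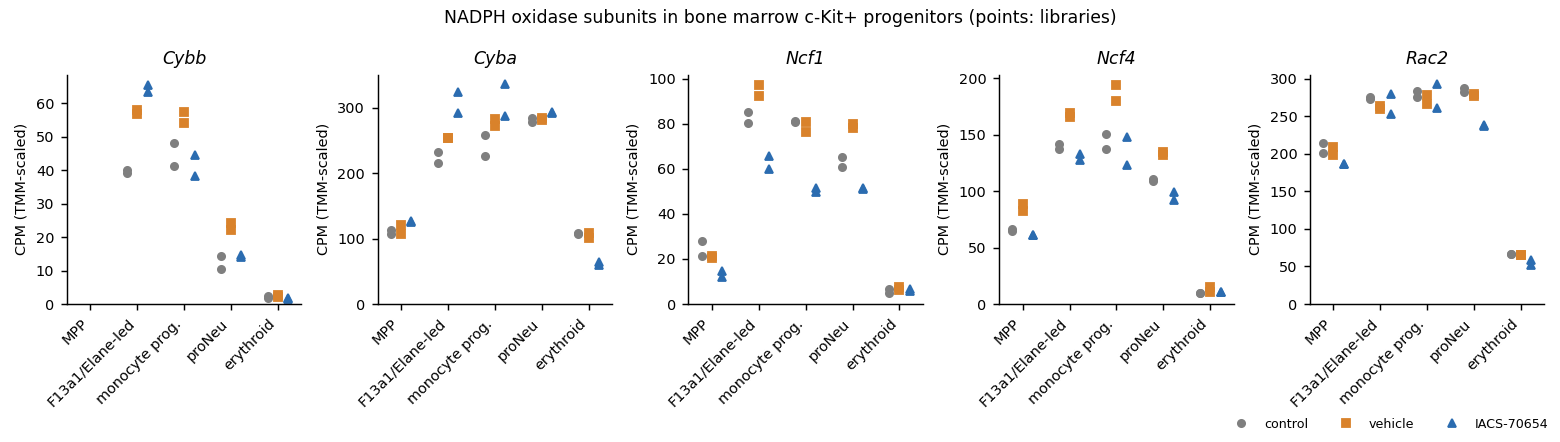
Level of the subunits in c-Kit+ BM classes, 1 point per library in each group (TMM-scaled CPM). Ncf1 in proNeu-like, monocyte progenitor-like, F13a1/Elane-led and MPP-like cells was lower in both IACS-70654 libraries than in both vehicle libraries.

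In c-Kit+ BM, 2 of 44 member and class pairs passed for vehicle against control, both Cybb and both higher, against 1.01% of all pairs. The median log2 change over the member pairs was 0.04. Cybb rose in F13a1/Elane-led progenitors from 39.1 and 40.0 CPM to 58.0 and 56.7 CPM (log2 change 0.55 ± 0.10, edgeR adjusted p = 7.59e-05), where 0.914% of genes were called. It rose in proNeu-like cells from 14.5 and 10.6 CPM to 22.1 and 24.1 CPM (0.81 ± 0.17, edgeR adjusted p = 1.43e-04), where 1.49% were called. The groups did not overlap in either class. Without control replicate 1 the first was not called (0.52, edgeR adjusted p = 0.0112), without control replicate 2 the second was not (0.65, edgeR adjusted p = 0.0355), and clustering of library-centred values gave -0.016 and -0.047. The number of calls was 1 without either control replicate. DESeq2's Wald test over all 6 libraries ended the first call (0.54, adjusted p = 0.0116). Thinning ended both calls, at 0.13 and 0.64. Within the c-Kit+ proNeu-like class, cluster 11, led by S100a9 and S100a8, held 19.4% of control, 26.2% of vehicle and 19.0% of IACS-70654 cells. The part of this shift in the Cybb and Ncf1 values of the class, in either comparison, was not tested.

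IACS-70654 against vehicle called 6 of 44 pairs in c-Kit+ BM, all lower, against 5.56% of all pairs, and the median over the member pairs was -0.24. Of the 6, 4 were Ncf1, the organizer subunit. In proNeu-like cells Ncf1 was 65.2 and 60.7 CPM in control, 79.9 and 78.1 CPM in vehicle, and 51.0 and 51.6 CPM in IACS-70654 libraries. The groups did not overlap, and the fall was -0.63 ± 0.06 (edgeR adjusted p = 2.10e-18, background 7.25%), called in all 14 alternatives. Ncf1 also fell in F13a1/Elane-led progenitors, from 92.3 and 97.2 CPM to 65.5 and 60.0 CPM (-0.57 ± 0.07, edgeR adjusted p = 2.71e-08, background 5.57%). In monocyte progenitor-like cells it fell from 80.6 and 76.5 CPM to 51.5 and 49.9 CPM (-0.64 ± 0.11, edgeR adjusted p = 2.30e-06, background 3.37%). In both, IACS-70654 libraries lay below all others. The monocyte progenitor-like call was lost with DESeq2's Wald test (-0.63, adjusted p = 0.0106).

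In MPP-like cells Ncf1 was 28.0 and 21.4 CPM in control, 21.2 and 20.4 CPM in vehicle, and 14.7 and 12.1 CPM in IACS-70654 libraries. The change of -0.61 ± 0.15 (edgeR adjusted p = 0.0013, background 5.87%) was not called without vehicle replicate 1 (-0.57, edgeR adjusted p = 0.133), without IACS-70654 replicate 2 (-0.50, edgeR adjusted p = 0.0204) or by DESeq2 (-0.62, adjusted p = 0.102). Cybb fell in c-Kit+ proNeu-like cells to 14.7 and 14.1 CPM (-0.65 ± 0.10, edgeR adjusted p = 7.85e-08), which lies near the control values. Cyba fell in erythroid-like cells, from 101.2 and 108.1 CPM to 64.5 and 60.0 CPM (-0.72 ± 0.06, edgeR adjusted p = 4.36e-23, background 6.71%). The summed level of 5 proNeu markers went from 17372 to 17842 CPM in vehicle to 19120 to 19933 CPM with IACS-70654 in the F13a1/Elane-led class, and from 16078 to 16728 CPM to 18750 to 19944 CPM in the monocyte progenitor-like class. Thinning ended the calls of Ncf1 in both of these classes (-0.61 and -1.37), of Cyba in erythroid-like cells (-0.55) and of Cybb in proNeu-like cells (-0.86), where centred clustering gave -0.38.

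In tumors there was 1 library per condition, so no difference between conditions was tested, and intervals cover counting error only. Tumor-associated neutrophil-like (TAN-like) cells held 65, 56, 102 and 38 Cybb UMIs in vehicle, IACS-70654, anti-PD1 and combination libraries. These corresponded to 104, 149, 128 and 94.6 CPM. Tumor-associated macrophage-like (TAM-like) cells held 541, 534, 539 and 536 CPM of Cybb, and monocyte-like cells 809, 694, 775 and 691 CPM. A Cybb UMI was seen in 5.0% to 10.0% of thinned TAN-like cells and in 1.2% to 2.7% of thinned tumor cells, which should lack it, at median depths of 1263 and 14914 UMIs. In thinned tumor T/NK-like cells, at 2631 UMIs, the share was 6.0% to 21.3%, and these cells also held 11109 to 54791 CPM of summed TAM markers. The share in TAN-like cells lay above that of tumor cells and within that of T/NK-like cells, and is not read as expression. Cybb thus stood higher in the macrophage and monocyte classes of these tumors than in the neutrophil class, in all 4 libraries.

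In TAN-like cells Ncf4 was the member that differed most between conditions. It measured 915 CPM in vehicle (95% exact Poisson interval 841 to 993), 595 CPM with IACS-70654 (520 to 679), 784 CPM with anti-PD1 (723 to 848) and 490 CPM with the combination (424 to 564). Both libraries with IACS-70654 lay below the others. The log2 ratio to vehicle was -0.62 (exact interval -0.85 to -0.39) for IACS-70654 and -0.90 (-1.14 to -0.66) for the combination. Cybb had a ratio of 0.51 with IACS-70654, with an interval of -0.03 to 1.05 that includes no change. In this class 37% of genes with IACS-70654 and 37.5% with the combination were past the same fold. The summed TAN markers were 46086, 36745, 51892 and 26966 CPM in the 4 libraries in the same order. Like Ncf4 they were lower in both libraries with IACS-70654 than in vehicle, but with anti-PD1 they were higher where Ncf4 was lower, and their part was not tested.

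In TAM-like cells Cybb was level and Ncf1 was lower wherever IACS-70654 was given. Ncf1 was 126, 75.3, 149 and 83.8 CPM in vehicle, IACS-70654, anti-PD1 and combination libraries. The log2 ratio to vehicle was -0.75 (-0.88 to -0.61) for IACS-70654 and -0.59 (-0.73 to -0.45) for the combination, while Cybb had -0.02 (-0.08 to 0.04) with IACS-70654. In this class 22% and 21.7% of genes were past the fold. Ncf4 in TAM-like cells was also lower, short of the fold. Its ratios were -0.29 (-0.36 to -0.23) for IACS-70654 and -0.38 (-0.45 to -0.31) for the combination. In monocyte-like cells Ncf4 had -0.34 (-0.51 to -0.17) and -0.28 (-0.45 to -0.11) in the same order. Ncf1 in TAN-like cells had -0.33 (-0.69 to 0.02) and -0.40 (-0.75 to -0.05). Monocyte-like cells had an Ncf1 ratio of -0.60 (-0.96 to -0.22) with IACS-70654, from 124 to 81.5 CPM, with 33.7% of genes past the fold. With the combination the ratio was -0.22 (-0.57 to 0.15) at 106 CPM, an interval that includes no change. There 34.3% of genes were past the fold. The monocyte-like class held 153, 852, 184 and 844 cells in the 4 libraries. With clustering of library-centred values, the cluster named monocyte-like held only 52, 76, 64 and 53 cells. The part of this boundary in the result was not tested. No member was past the fold with anti-PD1 alone in the TAN-like, monocyte-like or TAM-like class, where 23.5%, 22.1% and 12.3% of genes were. The TAM markers summed to 62327, 92105, 55250 and 94210 CPM in the TAM-like class. That class held 711, 2420, 550 and 2259 cells that fell mostly in different clusters with and without IACS-70654.

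**Figure D5:**
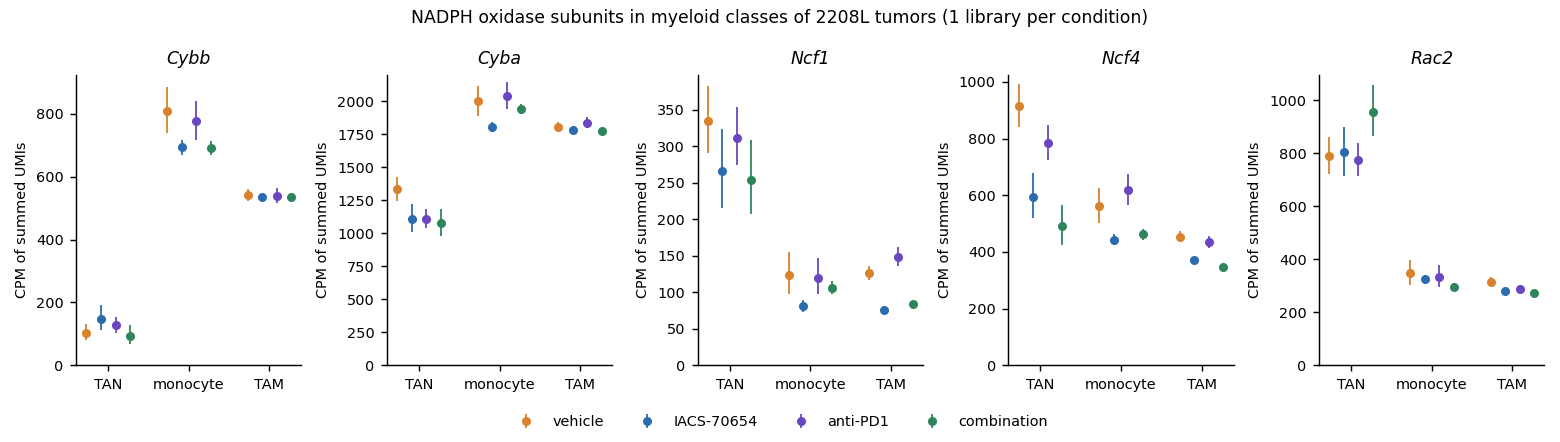
Level of each subunit (CPM with 95% exact Poisson intervals, counting error only) in TAN-like, monocyte-like and TAM-like cells of the 4 tumor libraries. Ncf4 in TAN-like cells ran from 915 CPM in vehicle to 490 CPM in the combination, and Cybb in TAM-like cells stayed between 534 and 541 CPM.

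Genes that assemble with or activate the oxidase moved in few classes. Of 14 partners, 7 of 147 gene and class pairs passed with IACS-70654 in CD45+ BM, 5 higher and 2 lower, beside 11% of all pairs, and 4 of 147 passed for vehicle against control, 1 higher and 3 lower, beside 3.4%. Hvcn1, the proton channel that balances the charge moved by the oxidase, rose with IACS-70654 by 1.77 in B cell-like and 1.10 in Retnlg/Mmp8-led cells. It fell by 1.05 in B cell-like cells for vehicle against control, and with IACS-70654 it fell by 2.36 in c-Kit+ basophil/mast-like cells. Among B cell-like cells, cluster 19 made up 20.7% in control, 4.80% in vehicle and 73.0% in IACS-70654 libraries. The part of cluster 19 in the Hvcn1 values of B cell-like cells was not tested. Pak1, a kinase activated by Rac, rose by 0.91 in monocyte-like cells. In c-Kit+ BM, 7 of 127 pairs passed with IACS-70654, 4 higher and 3 lower, led by Prkcb, a kinase that phosphorylates Ncf1, with 3.14 in basophil/mast-like cells. In that class cluster 10 held 75.4% of the vehicle cells and cluster 15 held 71.7% of the IACS-70654 cells. The part of this shift in the Prkcb and Hvcn1 values of the class was not tested. For vehicle against control 1 of 127 pairs passed. The shares of all pairs in c-Kit+ BM were 5.56% and 1.01%. The medians over the pairs were -0.07 and 0.00 in CD45+ BM and 0.06 and 0.01 in c-Kit+ BM, for IACS-70654 and vehicle in turn.

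Among 15 genes of superoxide and peroxide handling, 33 of 158 pairs passed with IACS-70654 in CD45+ BM, 18 higher and 15 lower. This stood beside 11% of all pairs, and the median over the listed pairs was -0.07. Cat (catalase) rose by 1.78 in mature neutrophil-like cells and Prdx2, a peroxiredoxin, by 1.31 in immature ones, while Prdx5, another peroxiredoxin, fell by 1.27 in T/NK-like cells. For vehicle against control 16 of 158 passed, 15 higher and 1 lower, beside 3.4% of all pairs and with a median of 0.15. Gpx1, a glutathione peroxidase, and Prdx5 rose by 1.38 and 1.36 in T/NK-like cells, and Gclm, a subunit of the enzyme that starts glutathione synthesis, by 1.25 in Retnlg/Mmp8-led cells. The T/NK-like changes moved with the immature neutrophil marker sum of that class, highest in its 22 and 21 vehicle cells, and its part was not tested. In c-Kit+ BM, 6 of 137 pairs passed with IACS-70654, 1 higher and 5 lower, beside 5.56% of all pairs, and 1 of 137 for vehicle against control, beside 1.01%.

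Of 5 transcription factors known to act on oxidase genes, 5 of 32 pairs passed with IACS-70654 in CD45+ BM, all lower, beside 11% of all pairs. Hoxa9 fell by 3.11 ± 0.63 in proNeu-like cells (edgeR adjusted p = 6.56e-04), the less precise of the 2 values named here. Irf1 fell by 0.72 ± 0.08 in mature neutrophil-like cells, where Cybb rose. In c-Kit+ BM 8 of 42 passed, 2 higher and 6 lower, beside 5.56% of all pairs, with Hoxa9 at -1.12 and Irf8 at 1.07 in proNeu-like cells. For vehicle against control, 1 of 32 passed (Spi1 at 2.26 in the few T/NK-like cells, whose immature neutrophil marker sum was also highest in vehicle) in CD45+ BM and 1 of 42 in c-Kit+ BM, beside 3.4% and 1.01% of all pairs. Of the 7 other NADPH oxidase genes, only Nox1 in CD45+ and Nox1 and Noxo1 in c-Kit+ BM had enough UMIs to test. None was called by edgeR, and results of the alternatives for these genes are not given here. The shares of all pairs called were 11% and 3.4% in CD45+ BM and 5.56% and 1.01% in c-Kit+ BM. Unadjusted edgeR p was below 0.05 in 0 of 6 and 1 of 6 pairs in CD45+ BM. In c-Kit+ BM it was below 0.05 in 2 of 10 and 1 of 10 pairs. These values are for IACS-70654 and vehicle in turn.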

How the data were processed

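The libraries were 3′ CellPlex single-cell RNA-seq libraries, and the deposited matrices hold UMI counts per gene and cell that the authors made with Cell Ranger (7.1.0 for tumors and 7.2.0 for BM in the file headers) against mm10. Total UMIs per library were 27816638 to 54510172 for CD45+, 27427163 to 68415534 for c-Kit+ and 15590289 to 43594797 for tumor libraries. No barcode was shared between libraries of 1 sort, and 0 to 17 were shared between sorts. The cells were tagged per sample with CellPlex oligos and split by Cell Ranger, and samples split from 1 capture share no barcode. The libraries of a sort may therefore come from 1 capture, which no source used here states. Spread between captures would then be missing from the p-values. Cells were kept if they had above 200 genes but under 6000, and if mitochondrial UMIs made up 10% or less. Cells were clustered in scanpy 1.11.5 (2000 variable genes without the members and the listed genes, 30 components, 20 neighbors, Leiden resolution 1 in leidenalg 0.10.2, Python 3.11.15), and clusters were named from marker genes. Scrublet called only 2 to 88 cells per library and was not used. The 5% of cells with the highest scores were left out in an alternative.

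UMIs were summed per library and class, and classes with at least 20 cells in each of the 6 libraries of a sort were tested with edgeR 4.0.16 in R 4.3.3 (limma 3.58.1, DESeq2 1.42.0 as an alternative), with low-count filtering, TMM scaling, a quasi-likelihood test and Benjamini-Hochberg adjustment over all genes tested in a class. For thinning, cells were reduced to 1000 UMIs, which left out 0.875% of CD45+, 0.746% of c-Kit+ and 3.38% of tumor cells. For tumors, exact Poisson and conditional binomial intervals at 95% were used (scipy 1.17.1), among genes with at least 20 UMIs over both libraries. The code was tested on simulated data with known changes. All 5 members were tested in every class with enough UMIs, and the text gives values for those that passed and ranges or examples for the others. From the lists of oxidase partners, peroxide-handling genes, transcription factors and other NADPH oxidases, only called genes were named, at most 4 per list and contrast by size of change. One listed item is not reported here. The members and lists were chosen with earlier results of these data known. Library totals without TMM, a separate clustering of neutrophils and the pooled late classes were alternatives chosen after seeing the data.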

Additional observations from a re-analysis of the deposited data

Results flagged for a closer look

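The effect of IACS-70654 on Cybb differed between 2 neutrophil stages of the same libraries. The log2 change against vehicle was 1.57 larger in mature than in immature neutrophil-like cells (SE 0.06, edgeR's quasi-likelihood test of the class by group term, Benjamini-Hochberg adjusted p = 9.85e-54). In mature cells Cybb was higher in both IACS-70654 libraries than in both vehicle libraries, and in immature cells it was lower in both under TMM scaling, although library totals gave 0.054 there. Both classes held different clusters in the 2 groups: mature cells lay mostly in cluster 1 with vehicle (90.4%) and cluster 3 with IACS-70654 (93.5%), and immature cells in clusters 4 and 9 with vehicle (57.0% and 35.6%) and cluster 11 with IACS-70654 (83.5%). The difference is therefore between classes named by markers and not between fixed sets of cells.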

How the results depend on the processing

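Of the alternative values for single members, 423 kept their direction and side of the threshold, 26 lost a call, 5 gained one, 10 changed sign and 3 tumor values moved. Sign changes came from library totals in immature neutrophils (Ncf1 -0.048 and Cybb -0.13 for vehicle, Ncf1 0.0063, Ncf4 0.16 and Cybb 0.054 for IACS-70654), from neutrophils clustered again (Ncf4 stage difference -0.035), from pooled late classes (Cybb 0.071 for vehicle), and from clustering of library-centred values (Cybb -0.11 in Retnlg/Mmp8-led cells with IACS-70654, and -0.016 in F13a1/Elane-led and -0.047 in proNeu-like c-Kit+ cells for vehicle). The cause was not tested. The number of member calls in CD45+ BM for vehicle against control (3) was 5 with centred clustering, 1 with neutrophils clustered again and 3 to 5 with 1 library left out. For IACS-70654 in CD45+ BM (7) it was 3 after thinning. In c-Kit+ BM for vehicle (2) it was 1 by DESeq2's Wald test, 0 after thinning, 0 with centred clustering and 1 to 3 with 1 library left out, and for IACS-70654 (6) it was 2 after thinning. For the stage difference (1) it was 1 to 2 with 1 library left out. In tumors, pairs past the fold with anti-PD1 (0) became 1 after thinning and 1 without likely doublets, and with the combination (2) became 4 with centred clustering.

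Deviations of same-numbered libraries from their group means correlated at -0.06 to 0.10. Such deviations hold counting noise, so these correlations cannot show whether same-numbered libraries share a pool or a batch. With the replicate number as a block the calls were 3, 7, 2 and 6 in the 4 BM comparisons and 1 for the stage difference, and no call changed. Centred clustering could not be fitted for mature and Il1b-high neutrophils, nor for the stage difference, because fewer than 20 control cells were left in a library. For T/NK-like cells, removal of likely doublets left fewer than 20 vehicle cells in 1 library, and thinning left 2 to 9 Cybb UMIs per library, so neither gave a Cybb value. Precision was limited by 2 libraries per group, by low Cybb counts in progenitors and TAN-like cells, and by class boundaries in late neutrophils.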

Other observations

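Over the 34 named classes of all sorts (mean level per class, log2(CPM + 1), 12938 genes), the genes with the pattern most like each member are given as a description, since classes share libraries and depth. For Cybb they were Clec4a2, C130026I21Rik and Cyba, each with a Pearson r of 0.88. For Cyba they were Cybb (0.88), Clec4a2 (0.87) and Slfn2 (0.87). For Ncf1 they were Rgs19, Nfam1 and Ncf4 at 0.91. Ncf4 was most like Spi1, the gene of PU.1 (0.93), Csf2ra (0.91) and Vsir (0.91). Rac2 was most like Coro1a (0.93), Arhgap30 (0.91) and Arhgdib (0.90). Rac2 shared less with the membrane pair, with 0.54 for Cybb and 0.45 for Cyba.

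In TAN-like cells, with 1 library per condition and counting error only, 6 of the 14 peroxide-handling genes with enough UMIs were past the fold with IACS-70654, 2 higher and 4 lower, and 5 of 14 with the combination, 1 higher and 4 lower. The log2 ratio of IACS-70654 to vehicle in TAN-like cells was -0.93 for Txn1 (thioredoxin, interval -1.16 to -0.70) and -1.07 for Hmox1 (heme oxygenase, -1.66 to -0.51). With the combination the ratios were -1.03 (-1.26 to -0.80) and -1.30 (-1.92 to -0.72). In this class 37% and 37.5% of genes were past the fold of 0.5 in the 2 contrasts. The summed TAN markers were 46086 CPM in vehicle, 36745 CPM with IACS-70654 and 26966 CPM with the combination, and their part was not tested.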
